A study of Homo sapiens with 6 samples.

Results

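The genes described here encode the proteasome, its activators, its assembly factors and the enzymes that sit on it. They were chosen by symbol, as every gene named PSMA to PSMG followed by a number, with USP14, UCHL5, ADRM1 and POMP, and 52 of the 23619 genes in the files met that rule. The cells were HG3, an established lymphoblastoid B cell line that derives from chronic lymphocytic leukemia. The study set 3 pools of fludarabine-resistant HG3 cells, numbered 17, 18 and 28, against 3 control pools with the same numbers, with 1 RNA-seq library for each pool and group. The sample titles call the resistant pools treated, so treatment and resistance cannot be told apart between these groups. The series concerns transposon mutagenesis. The sources used here do not say which pools carried insertions, where these lay, or whether the drug was present at harvest. All pools derive from a single line, and the labels do not say whether they were separate cultures from the start, so a p-value here weighs a difference against the spread of the libraries, which may be technical. Fludarabine is a purine nucleoside analogue used against this leukemia.

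The proteasome is the chamber in which cells cut up proteins that carry ubiquitin chains. Its core is a barrel of stacked rings. The outer rings hold alpha subunits that gate the entrance, and the inner rings hold beta subunits, of which PSMB5, PSMB6 and PSMB7 do the cutting. A cap on the barrel holds a ring of ATPases (PSMC genes) that unfold substrates. It also holds a set of non-ATPase subunits (most PSMD genes), some of which bind ubiquitin or remove it. Lymphoid cells also carry PSMB8, PSMB9 and PSMB10, which replace the constitutive cutting subunits and shape the peptides shown to T cells.

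Expression was given as FPKM, fragments scaled to transcript length and to the mapped fragments of the library, so levels of different genes can be set side by side per length. Differences are resistant minus control on log2(FPKM + 1), where the added 1 pulls the differences of weakly expressed genes towards 0. Each library had 10936 to 11331 genes at an FPKM of 1 or more, and relative sequencing depth ran from 1 in control 17 to 1.30 in resistant 28. Absolute depth was not available, so no counting interval could be given. Resistant 18 stood apart: principal component 1 (41.4% of the variance) placed it at 58.8 and the other 5 libraries between -33.5 and 6.81. Its array weight, limma's estimate of how closely a library follows the group means, was 0.162, against 1.03 to 1.93 for the others. All 8 B cell markers looked at were expressed, with summed levels of 933 to 1217 FPKM in resistant libraries and 819 to 1128 FPKM in control libraries. Among them PAX5 averaged 13.1 ± 0.348 FPKM in resistant libraries and 16.3 ± 1.25 FPKM in control libraries. The 5 erythroid markers stayed under an FPKM of 1 in every library. So did 4 of 5 T cell markers, all but TRAT1 (0.368 to 11.7 FPKM), 3 of 5 myeloid markers, all but CD33 and CSF1R, and 4 of 5 epithelial or fibroblast markers, all but KRT18. Of these, CD33 was the one whose groups lay apart, at 0.133 to 1.70 FPKM in resistant libraries and 3.86 FPKM or more in control libraries, and the summed myeloid level was 2.31 to 2.99 FPKM in resistant libraries and 5.10 to 14.6 FPKM in control libraries; its part in the results was not tested.

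Of the 52 genes, 50 reached an FPKM of 1 in 3 libraries or more and were tested. PSMA8, the testis form of an alpha subunit, reached 1 only in resistant 18 (2.31 FPKM), and PSMB11, the beta subunit of the thymus, was listed at 0 in every library but control 18 (0.0376 FPKM). By limma with Benjamini-Hochberg adjustment over all 11307 tested genes, 0 of the 50 passed the threshold of 0.05, where 0.0354% of all genes did, 4 in all. At an unadjusted p under 0.05 stood 8 of the 50, or 16%, against a background of 13.1% of all genes. PSMA4, PSMB6, PSMC3, PSMD11 and PSMG1 were the 5 on the higher side (background 5.99%) and PSMB4, PSMF1 and USP14 the 3 on the lower side (background 7.14%). In all 3 pools 14 of the 50 (28%) were higher and 5 (10%) lower, where 18.9% and 18.7% of all genes were. With array weights, which give resistant 18 less say, 2 of the 50 (4%) passed, USP14 and PSMA4, where 301 of all genes (2.66%) did.

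USP14, the deubiquitinase that docks on the cap and trims ubiquitin chains from substrates, had the largest difference of the 50. It was known from earlier results of these data to rank high, so its place among the 50 and in their counts carries no test. It had 7.60, 6.94 and 6.56 FPKM in resistant 17, 18 and 28, against 18.7, 23.4 and 26.8 FPKM in control 17, 18 and 28. Every resistant library was below every control library. These are bulk libraries, in which fewer cells with a transcript and less of it per cell cannot be told apart. Mean levels were 7.04 ± 0.525 FPKM in resistant pools and 22.9 ± 4.06 FPKM in control pools (SD, n = 3 each), a ratio of 0.307. Pools 17, 18 and 28 gave log2 differences of -1.19, -1.62 and -1.88, and the fit over all libraries gave -1.56 (SE 0.18, limma adjusted p = 0.0656), which missed the threshold. With array weights the difference was also -1.56 and the adjusted p 0.0134. Over all alternatives the adjusted p ran from 0.0134 to 0.868, the highest without pool 28. In each of the 3 pools, USP14 was the member with the lowest difference. Set against the median of the 50 genes in the same library, its difference was -1.17, -1.78 and -2.15 in pools 17, 18 and 28.

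The upstream region of USP14 is shown because it carried the largest difference. RefSeq promoter windows, 250 bases before to 50 after a start site, were found for 46 of the 52 genes, 58 windows in all, and the USP14 window lies at chr18:158307-158606 on the + strand of GRCh38.p14. Capitals mark a match, on either strand, to TGACNNNGC, the core of the antioxidant response element.
USP14 promoter: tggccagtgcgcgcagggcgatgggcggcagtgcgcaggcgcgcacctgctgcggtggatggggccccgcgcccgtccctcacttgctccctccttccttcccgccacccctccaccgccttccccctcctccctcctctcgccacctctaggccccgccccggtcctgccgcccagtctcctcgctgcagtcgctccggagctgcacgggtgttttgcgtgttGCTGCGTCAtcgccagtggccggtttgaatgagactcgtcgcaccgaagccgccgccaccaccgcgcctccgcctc
That motif binds NFE2L1 and NFE2L2, the first of which drives proteasome genes when proteasome activity drops. It was present in 19 of the 58 windows (32.8%) and in 13.3% of 35116 RefSeq windows. Windows of the same gene can overlap and count a match more than once, as those of ADRM1 do. Any window with a member's symbol on a single chromosome holding none of the 52 genes was left out of the 58 but not the 35116. The core of the interferon-stimulated response element, GAAA then 2 free bases and GAAA again, was present in 7 of the 58 (12.1%) and in 3.57% of all, and the NF-Y box CCAAT in 22 (37.9%) and in 34.6% of all. A match to these letters is a description of the window and not a binding site.

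**Figure D1:**
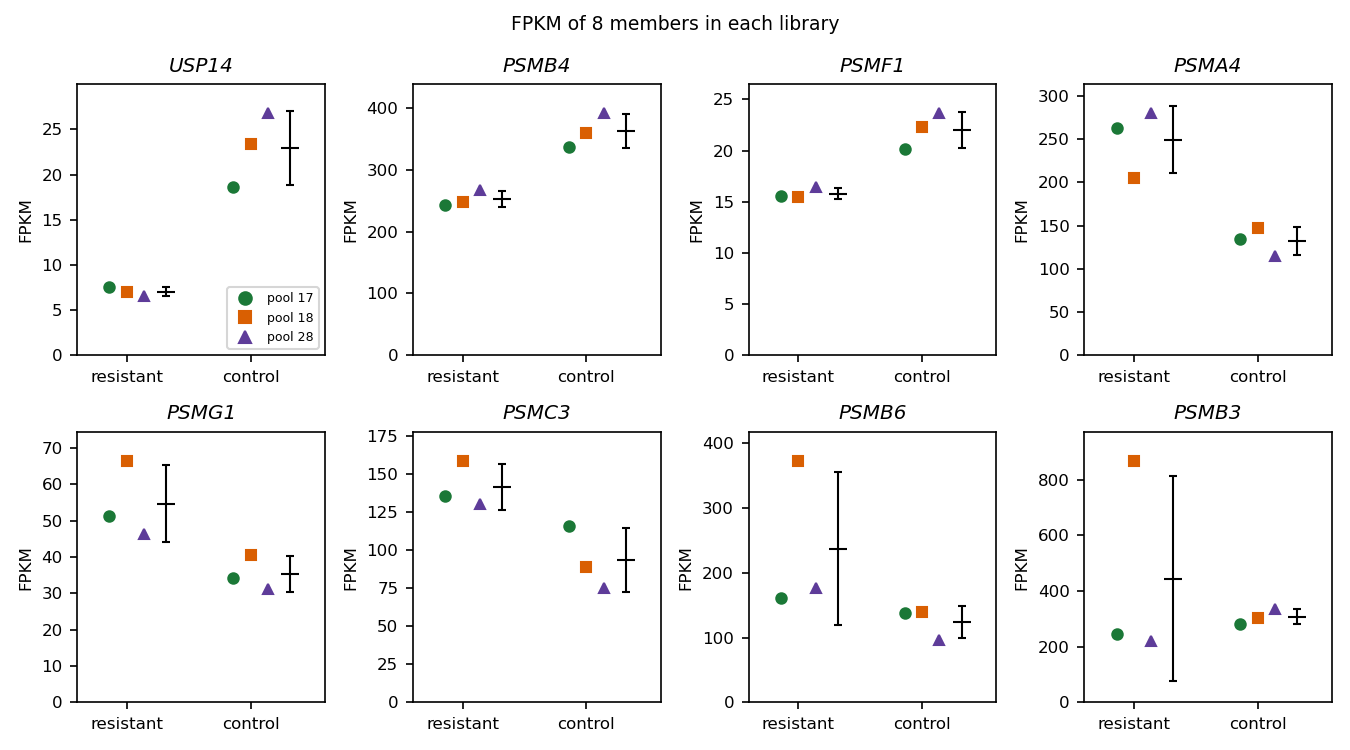
FPKM (linear axis) of 8 genes in each library, resistant left and control right, with pools 17, 18 and 28 as circle, square and triangle and the mean ± SD beside them. USP14, PSMB4 and PSMF1 lay lower in every resistant library than in any control, PSMA4, PSMG1, PSMC3 and PSMB6 lay higher, and PSMB3 was set apart only by 868 FPKM in resistant 18.

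Most genes around USP14 on chromosome 18 had far smaller differences. The 11 nearest tested genes had median differences of -0.14, -0.08 and -0.20 in pools 17, 18 and 28. ROCK1P1 lay before USP14 in chromosomal order and the others after it. THOC1, whose exons overlap those of USP14 on the opposite strand in the GENCODE annotation, had 11.6, 9.83 and 9.46 FPKM in resistant 17, 18 and 28, against 9.64, 10.5 and 8.62 FPKM in control 17, 18 and 28, so these groups overlapped. Whether the counting used strand is not stated, so reads from the shared bases cannot be assigned to either gene here. TYMS, which encodes thymidylate synthase, had the largest difference among the neighbours. It had 25.3, 20.0 and 25.1 FPKM in resistant 17, 18 and 28, against 45.2, 73.8 and 67.0 FPKM in control 17, 18 and 28. All resistant values were below all control values (log2 difference -1.34, limma adjusted p = 0.158). The groups of 2 more neighbours lay apart in the same direction with smaller differences, LPIN2 (-0.49, limma adjusted p = 0.304) and C18orf56 (-0.47, limma adjusted p = 0.473). Among all tested genes, 11.1% lay lower in every resistant library than in any control.

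**Figure D2:**
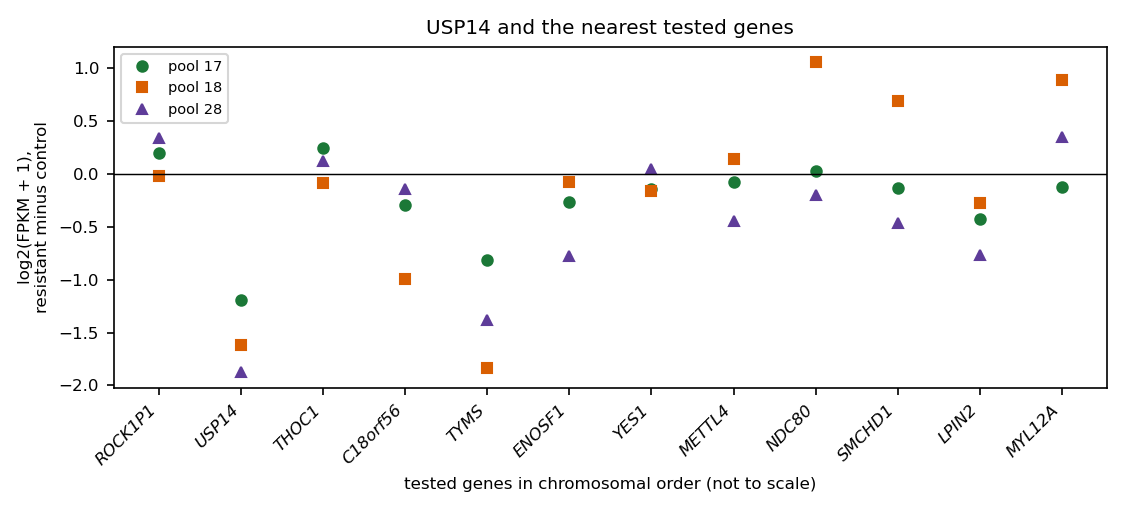
Resistant minus control difference on log2(FPKM + 1) for USP14 and its 11 nearest tested genes, in chromosomal order and not to scale, 1 symbol per pool. USP14 and TYMS lay below the others in all 3 pools; THOC1 lay near 0.

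The other cap-bound genes overlapped between the groups. UCHL5, a second deubiquitinase of the cap, had 4.36, 7.84 and 5.67 FPKM in resistant 17, 18 and 28, against 4.50, 5.37 and 5.09 FPKM in control 17, 18 and 28. The groups overlapped, and the log2 difference was 0.19 (SE 0.21, limma adjusted p = 0.743). ADRM1, the ubiquitin receptor that recruits UCHL5, had 121, 76.3 and 114 FPKM in resistant 17, 18 and 28, against 96.1, 82.1 and 69.1 FPKM in control 17, 18 and 28. It differed by 0.33, -0.10 and 0.71 in pools 17, 18 and 28 (overall 0.31, limma adjusted p = 0.605), and the groups overlapped.

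In the alpha ring, PSMA4 had the clearest difference. It had 263, 205 and 280 FPKM in resistant 17, 18 and 28, against 135, 147 and 115 FPKM in control 17, 18 and 28. All resistant libraries were above all controls, and the ratio of means was 1.89. The log2 difference was 0.96, 0.48 and 1.27 in pools 17, 18 and 28 and 0.91 in the fit over all libraries (SE 0.20, limma adjusted p = 0.182); with array weights it was 0.98 (adjusted p = 0.0339). The 20 nearest tested genes to PSMA4 had medians of -0.04, -0.10 and 0.47 in pools 17, 18 and 28, so the neighbours also had a median above 0 in pool 28. PSMA5 had 42.6, 76.9 and 38.0 FPKM in resistant 17, 18 and 28, against 35.0, 34.3 and 33.6 FPKM in control 17, 18 and 28. Its groups did not overlap, but the margin outside resistant 18 was small (0.53 over the pools, limma adjusted p = 0.449). PSMA7, the most highly expressed of the alpha subunits in every library, had 311, 341 and 355 FPKM in resistant 17, 18 and 28, against 385, 423 and 361 FPKM in control 17, 18 and 28, and was the alpha gene whose groups lay apart downward (-0.21, limma adjusted p = 0.651). PSMA1, PSMA2, PSMA3 and PSMA6 overlapped between groups, had their highest value in resistant 18 and differed by 0.14 (PSMA6) to 0.41 (PSMA2). PSMA2 had 121, 308 and 124 FPKM in resistant 17, 18 and 28, against 125 FPKM in each control.

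The beta ring held genes on both sides. PSMB4, a structural beta subunit, had 242, 247 and 267 FPKM in resistant 17, 18 and 28, against 337, 359 and 391 FPKM in control 17, 18 and 28. The groups lay apart in all 3 pools by nearly the same amount, -0.47, -0.53 and -0.55 (overall -0.52, SE 0.17, limma adjusted p = 0.292). The ratio of means was 0.696. PSMB6, the caspase-like cutting subunit, lay on the higher side, with 162, 373 and 177 FPKM in resistant 17, 18 and 28, against 138, 139 and 96.5 FPKM in control 17, 18 and 28. Its groups did not overlap, and its difference was 0.23, 1.42 and 0.87 in pools 17, 18 and 28 (overall 0.84, SE 0.35, limma adjusted p = 0.371). Without resistant 18 it was 0.46. PSMB5, the chymotrypsin-like subunit that proteasome inhibitor drugs bind, had 110, 201 and 141 FPKM in resistant 17, 18 and 28, against 162, 143 and 146 FPKM in control 17, 18 and 28. PSMB7, the trypsin-like subunit, had 125, 207 and 140 FPKM in resistant 17, 18 and 28, against 145, 149 and 162 FPKM in control 17, 18 and 28. Both overlapped between groups, with differences of -0.04 for PSMB5 and 0.02 for PSMB7, a value that for PSMB7 was below 0 under median centring (-0.0021) and quantile normalization (-0.022). PSMB3, a structural subunit, reached 868 FPKM in resistant 18, against 246 and 221 FPKM in resistant 17 and 28 and 283, 304 and 337 FPKM in control 17, 18 and 28. PSMB1, another structural subunit, stayed between 295 and 339 FPKM in all libraries. PSMB2 had the lowest level of the ring, 8.76 to 10.8 FPKM over all libraries, and overlapped between groups (0.12, limma adjusted p = 0.766). Subunits that stand in equal numbers in the barrel had unequal FPKM. The highest over the lowest of the beta genes was 28.8 to 84.2, and of the alpha genes 4.44 to 12.3. The lowest beta gene was PSMB2 in every library, and the lowest alpha gene PSMA5 in all but resistant 17. Their annotated transcripts had median lengths of 3459 and 2616.5 bases. The other tested beta ring genes had 641.5 to 964 bases, and the other tested alpha genes 773 to 1266. FPKM divides by length, and its part in these ratios was not tested.

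The PSMB4 window, at chr1:151399323-151399622 on the + strand of GRCh38.p14, is shown because PSMB4 was the beta gene with the steadiest difference. Capitals mark a match to the interferon-stimulated response element core.
PSMB4 promoter: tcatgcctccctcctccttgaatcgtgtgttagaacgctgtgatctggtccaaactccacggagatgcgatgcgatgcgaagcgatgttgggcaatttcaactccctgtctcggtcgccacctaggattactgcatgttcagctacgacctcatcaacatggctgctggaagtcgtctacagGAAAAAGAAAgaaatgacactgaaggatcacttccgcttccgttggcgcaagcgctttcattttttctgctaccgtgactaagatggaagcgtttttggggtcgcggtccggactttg

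The immunoproteasome genes were expressed in all libraries, at overlapping levels in the groups. PSMB8 had 140, 125 and 130 FPKM in resistant 17, 18 and 28, against 128, 123 and 108 FPKM in control 17, 18 and 28. PSMB10 had 213, 206 and 201 FPKM in resistant 17, 18 and 28, against 197, 206 and 171 FPKM in control 17, 18 and 28. PSMB9 had 69.5, 52.9 and 83.1 FPKM in resistant 17, 18 and 28, against 66.3, 60.0 and 42.5 FPKM in control 17, 18 and 28. The differences of PSMB8, PSMB10 and PSMB9 were 0.14, 0.12 and 0.28 (SE 0.17, 0.17 and 0.24, limma adjusted p = 0.759, 0.812 and 0.665). Their sum was 383 to 423 FPKM in resistant libraries and 321 to 391 FPKM in control libraries. The ratio of each to the subunit it replaces was compared over samples by an exact two-sided permutation test, which with 3 libraries per group cannot give a p under 0.1. PSMB8 over PSMB5 had log2 ratios of 0.35, -0.68 and -0.12 in resistant 17, 18 and 28, against -0.34, -0.22 and -0.43 in control 17, 18 and 28 (exact p = 0.7). PSMB9 over PSMB6 had -1.21, -2.80 and -1.08 in resistant 17, 18 and 28, against -1.04, -1.20 and -1.16 in control 17, 18 and 28 (exact p = 0.4). PSMB10 over PSMB7 had 0.76, -0.01 and 0.52 in resistant 17, 18 and 28, against 0.43, 0.47 and 0.07 in control 17, 18 and 28 (exact p = 0.7). Adjusted over the 3 pairs, each exact p was 0.7. Resistant 18 had the lowest ratio of all libraries in each pair.

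**Figure D3:**
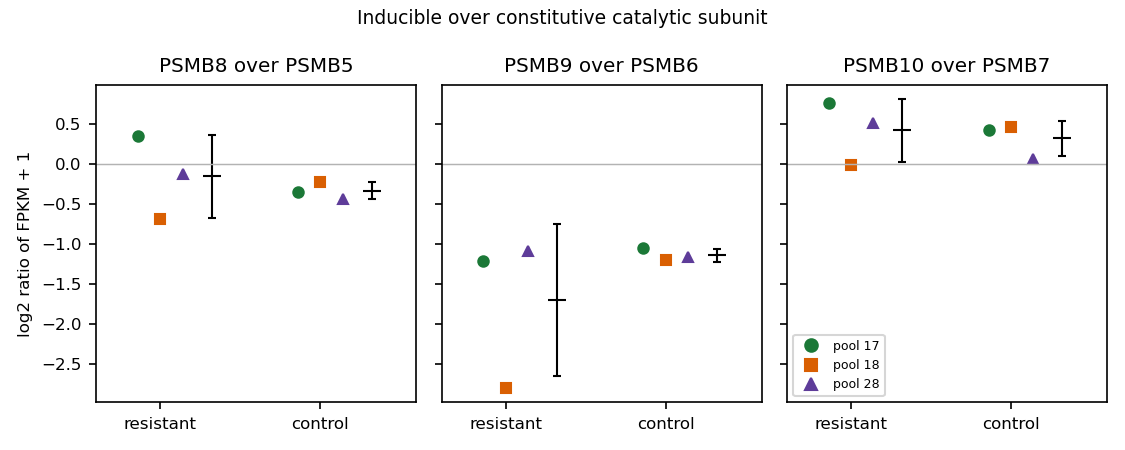
Log2 ratio of FPKM + 1 of each interferon-inducible cutting subunit over the constitutive one it replaces, resistant left and control right, 1 symbol per pool, with the mean ± SD beside. The control values spread less than the resistant values, with SDs of 0.108, 0.0814 and 0.219 against 0.520, 0.955 and 0.395 from left to right. Resistant 18 is lowest in all 3 panels (-2.80 for PSMB9 over PSMB6), though close to control 28 for PSMB10 over PSMB7 (-0.01 and 0.07).

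Among the cap ATPases, PSMC3 had 135, 159 and 130 FPKM in resistant 17, 18 and 28, against 116, 89.2 and 75.0 FPKM in control 17, 18 and 28. Its groups did not overlap, and it differed by 0.22, 0.82 and 0.79 in pools 17, 18 and 28 (overall 0.61, SE 0.21, limma adjusted p = 0.30). PSMC5, the least expressed ATPase in every library, had 27.7, 31.7 and 32.5 FPKM in resistant 17, 18 and 28, against 19.9, 28.1 and 25.9 FPKM in control 17, 18 and 28, with overlap (0.31, limma adjusted p = 0.50). PSMC1 was low in resistant 18 alone: it had 92.3, 49.5 and 117 FPKM in resistant 17, 18 and 28, against 103, 105 and 91.4 FPKM in control 17, 18 and 28. The annotation names 13 pseudogenes after PSMC1, and reads shared with them could be split by the authors' counting. PSMC2, PSMC4 and PSMC6 differed by -0.14 to 0.08.

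The cap non-ATPase class took in every PSMD gene, with the assembly chaperones PSMD5, PSMD9 and PSMD10 among them. Of these 14 genes, 3 lay higher in every resistant library than in any control and 0 lay lower. Over all 50 members 9 lay higher in this way, against 10.1% of all genes, and 4 lay lower, against 11.1%, so shares of 18% and 8% stand beside those backgrounds. PSMD11, a scaffold of the lid, had 19.4, 31.2 and 21.9 FPKM in resistant 17, 18 and 28, against 16.1, 14.8 and 15.0 FPKM in control 17, 18 and 28. It differed by 0.26, 1.03 and 0.52 (overall 0.60, SE 0.20, limma adjusted p = 0.292). PSMD12, another lid subunit, had 8.03, 15.0 and 9.05 FPKM in resistant 17, 18 and 28, against 6.61, 6.86 and 7.86 FPKM in control 17, 18 and 28 (0.49, limma adjusted p = 0.430; 0.21 without pool 18). PSMD4, a ubiquitin receptor, had 188, 199 and 195 FPKM in resistant 17, 18 and 28, against 179, 152 and 114 FPKM in control 17, 18 and 28 (0.41, limma adjusted p = 0.452). In these 3 genes the resistant values were above all controls, by the widest ratio for PSMD11. PSMD14, the metalloprotease that removes ubiquitin chains at the cap, had 67.0, 142 and 56.9 FPKM in resistant 17, 18 and 28, against 71.0, 69.8 and 70.6 FPKM in control 17, 18 and 28, and was high in resistant 18 only. The other 10 non-ATPase genes overlapped between the groups, with overall differences of -0.05 for the assembly chaperone PSMD9 to 0.33 for PSMD1, a scaffold of the base. PSMD1 had 13.2, 37.9 and 15.8 FPKM in resistant 17, 18 and 28, against 13.7, 16.2 and 17.5 FPKM in control 17, 18 and 28, so it too was high in resistant 18 only.

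The activators PSME1 and PSME2, which form a ring that opens the core and is induced by interferon, were higher in all 3 pools without separating the groups. PSME2 had 472, 703 and 483 FPKM in resistant 17, 18 and 28, against 402, 481 and 390 FPKM in control 17, 18 and 28 (0.36, limma adjusted p = 0.542). PSME1 had 456, 423 and 363 FPKM in resistant 17, 18 and 28, against 350, 367 and 292 FPKM in control 17, 18 and 28 (0.30, limma adjusted p = 0.557). PSMF1, an inhibitor of the core in vitro, had 15.5, 15.4 and 16.4 FPKM in resistant 17, 18 and 28, against 20.2, 22.3 and 23.6 FPKM in control 17, 18 and 28. Its groups lay apart, with differences of -0.36, -0.50 and -0.50 in pools 17, 18 and 28 (overall -0.45, SE 0.14, limma adjusted p = 0.272). PSME4, an activator of the nucleus, had 8.29, 12.5 and 7.99 FPKM in resistant 17, 18 and 28, against 9.04, 11.9 and 17.8 FPKM in control 17, 18 and 28, and differed by -1.06 in pool 28 alone. PSME3, which forms a nuclear activator ring, had 20.8, 33.4 and 17.7 FPKM in resistant 17, 18 and 28, against 16.1, 21.5 and 25.5 FPKM in control 17, 18 and 28, and overlapped (0.16, limma adjusted p = 0.849).

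The PSME2 window, at chr14:24146561-24146860 on the - strand, is shown because it holds both the antioxidant and the interferon-stimulated core, in capitals. The PSME1 window holds both as well.
PSME2 promoter: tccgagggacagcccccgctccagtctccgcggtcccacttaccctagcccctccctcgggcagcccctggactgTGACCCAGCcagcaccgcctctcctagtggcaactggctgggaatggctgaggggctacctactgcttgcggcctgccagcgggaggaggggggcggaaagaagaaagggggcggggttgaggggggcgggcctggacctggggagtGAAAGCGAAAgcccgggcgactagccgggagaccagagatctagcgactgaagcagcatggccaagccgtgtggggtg

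Among the assembly factors, PSMG1, which with PSMG2 guides the alpha ring together, had 51.3, 66.5 and 46.3 FPKM in resistant 17, 18 and 28, against 34.2, 40.7 and 31.2 FPKM in control 17, 18 and 28. The groups did not overlap, and its difference was 0.57, 0.70 and 0.55 in pools 17, 18 and 28 (overall 0.61, SE 0.20, limma adjusted p = 0.285). Its partner PSMG2 lay on the other side, with 63.5, 75.6 and 67.9 FPKM in resistant 17, 18 and 28, against 70.3, 81.1 and 105 FPKM in control 17, 18 and 28 (-0.29, limma adjusted p = 0.568), and these groups overlapped. POMP, which helps the beta ring mature, had 98.9, 116 and 89.8 FPKM in resistant 17, 18 and 28, against 82.3, 85.9 and 68.4 FPKM in control 17, 18 and 28. Its groups lay apart (0.36, SE 0.18, limma adjusted p = 0.449). PSMG3 and PSMG4 differed by -0.23 and -0.03.

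Many of the larger differences lay in pool 18. Resistant 18 was the highest of the 6 libraries for 28 of the 50 genes (56%), where it was for 35.4% of all genes. Above 0 lay 22 of the 50 in pool 17 (background 47.2%), 35 in pool 18 (53.4%) and 31 in pool 28 (49.3%). In pool 18, 9 of the 50 were above a difference of 1, against a background of 5.41%, namely PSMA2, PSMA3, PSMA5, PSMB3, PSMB6, PSMD1, PSMD11, PSMD12 and PSMD14. In pool 17 this was 0 of 50 (background 2.45%) and in pool 28 it was 1, PSMA4 (background 4.06%). Below -1 lay USP14 in pool 17 (background 1.72%), PSMC1 and USP14 in pool 18 (background 7.24%), and PSME4 and USP14 in pool 28 (background 4.02%). No member differed by over 1 between any pair of controls, where 2.81% (18 and 17), 2.57% (28 and 17) and 2.13% (28 and 18) of all genes did. The summed level of the 52 genes was 5435, 7343 and 5539 FPKM in resistant 17, 18 and 28, against 5363, 5480 and 5033 FPKM in control 17, 18 and 28. Control 28 had the lowest value of the 6 libraries for 20 of the 50 genes (40%), against 18.6% of all genes.

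**Figure D4:**
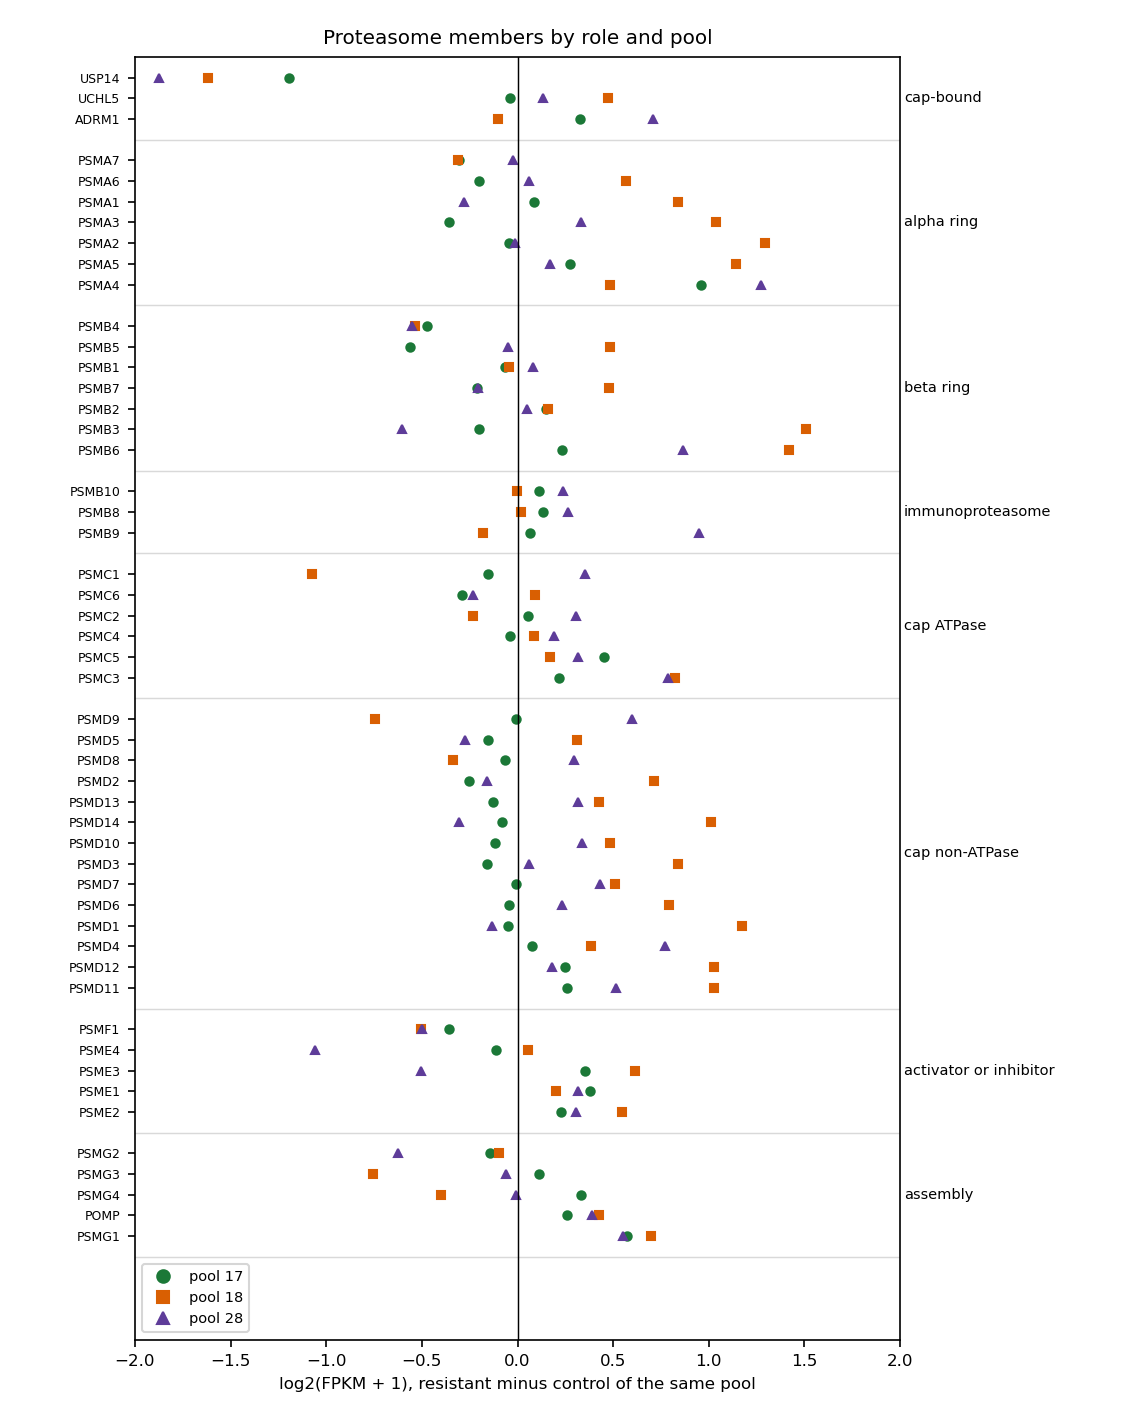
Resistant minus control difference on log2(FPKM + 1) of the 50 tested genes, grouped by role, 1 symbol per pool. Pool 18 (squares) reaches past 1 for 9 genes, while USP14 is the gene below -1 in all 3 pools.

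By role, the medians of pool 18 were highest in the core rings and the non-ATPase cap. Medians over the alpha ring were -0.05, 0.84 and 0.06 in pools 17, 18 and 28, over the beta ring -0.20, 0.48 and -0.05, and over the non-ATPase cap -0.06, 0.61 and 0.26. The immunoproteasome had 0.11, -0.00 and 0.26, the ATPases 0.01, 0.09 and 0.31, and the assembly factors 0.26, -0.10 and -0.01. The activators and inhibitor had 0.23, 0.20 and -0.50, and the cap-bound genes -0.04, -0.10 and 0.13. All 50 had medians of -0.04, 0.43 and 0.18, against -0.03, 0.05 and -0.01 for all genes tested. With GC and length trends removed from each library, the 50 had 0.00, 0.22 and 0.14, the alpha ring had 0.69 in pool 18, and 3 genes remained above 1 there, PSMA2, PSMB3 and PSMB6. That is 6% of the 50, where 4.82% of the 9919 genes so treated were above 1, while before removal it was 18% of the 50 against the 5.41% given above. Chromosome 17 was picked with earlier results of these data known, and no other chromosome was compared in this way. Of the genes above 1 in pool 18, PSMB3, PSMB6, PSMD11 and PSMD12 lie on chromosome 17. PSMA2, PSMA3, PSMA5, PSMD1 and PSMD14 lie on others. The 7 tested members on chromosome 17 (PSMB3, PSMB6, PSMC5, PSMD11, PSMD12, PSMD3 and PSME3) had a median of 1.03 in pool 18, against 0.27 for 701 other genes of that chromosome and 0.31 for the 43 members elsewhere. Over all libraries the median of both core rings was 0.18, and without resistant 18 it was -0.05. These medians carry no test, and the part that GC content, length or chromosomal position has in them was not tested.

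**Figure D5:**
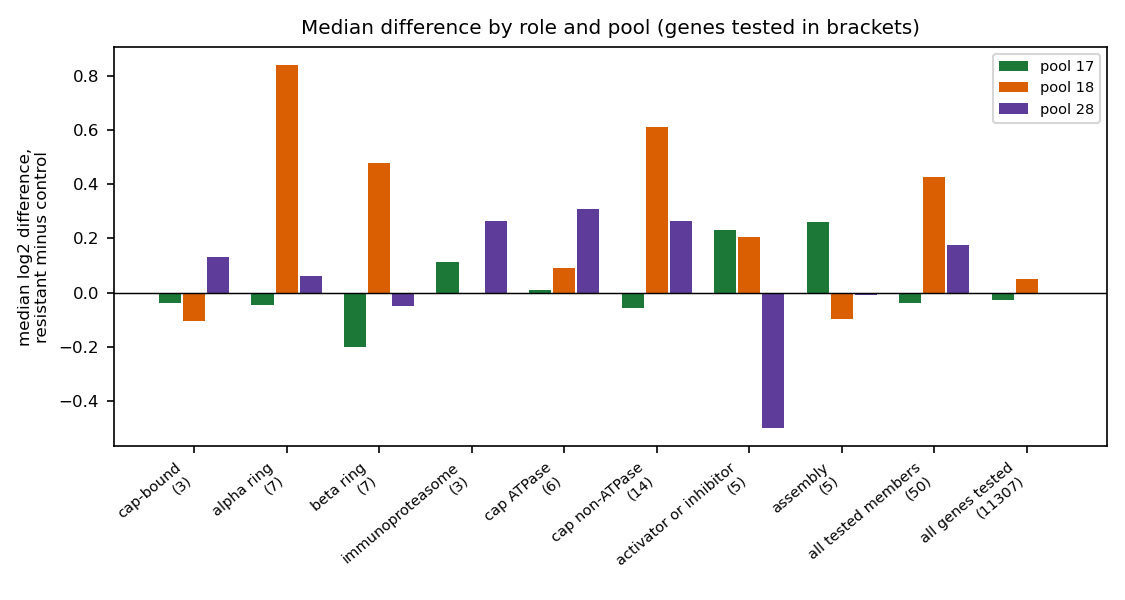
Median resistant minus control difference on log2(FPKM + 1) for each role, the 50 tested members and all 11307 tested genes, with 1 bar per pool. The alpha ring (0.84), the non-ATPase cap (0.61) and the beta ring (0.48) stand out in pool 18.

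Genes that work with the proteasome were looked at as 6 lists of 65 tested genes together. By limma 0 of them passed the adjusted threshold, 12 (18.5%) had an unadjusted p under 0.05, beside the 13.1% of all genes, and 2 (3.08%) passed with array weights, USP34 and NSFL1C, beside 2.66% of all genes. Of 16 partners of the cap and ubiquitin shuttles, 6 (37.5%) were lower and 0 higher in all 3 pools, where 18.7% and 18.9% of all genes were, and the median was -0.14 against 0.01 for all genes. The shuttle UBQLN2 had 3.59, 4.02 and 4.10 FPKM in resistant 17, 18 and 28, against 5.28, 8.01 and 10.3 FPKM in control 17, 18 and 28, with no overlap (-0.81, SE 0.23, limma adjusted p = 0.232). The proteasome adaptor KIAA0368 differed by -0.44 (limma adjusted p = 0.321). Of 10 regulators of proteasome genes, NFE2L1, the factor that raises proteasome transcription, had 115, 111 and 137 FPKM in resistant 17, 18 and 28, against 92.6, 74.6 and 77.0 FPKM in control 17, 18 and 28 (0.57, limma adjusted p = 0.265). Its groups lay apart, and the list's median was 0.04. NFE2L2, the related factor of the oxidative stress response, had 16.5, 10.1 and 18.4 FPKM in resistant 17, 18 and 28, against 18.7, 24.1 and 25.7 FPKM in control 17, 18 and 28. Its groups lay apart on the lower side (-0.60, SE 0.25, limma adjusted p = 0.371). SYVN1, a ubiquitin ligase of the endoplasmic reticulum, was lower in resistant pools (-0.57, limma adjusted p = 0.305). Of 6 ubiquitin genes and activating enzymes, RPS27A, which encodes ubiquitin fused to a ribosomal protein, had 601, 522 and 625 FPKM in resistant 17, 18 and 28, against 1011, 1004 and 879 FPKM in control 17, 18 and 28. Its groups lay apart (-0.73, limma adjusted p = 0.220). The list's median was -0.24. Of 19 other deubiquitinases, 4 (21.1%) were higher and 5 (26.3%) lower in all 3 pools, where 18.9% and 18.7% of all genes were, and their median was 0.03. USP34 was the one with the smallest p, at 7.19, 10.2 and 7.28 FPKM in resistant 17, 18 and 28, against 14.3, 15.5 and 20.2 FPKM in control 17, 18 and 28 (-0.94, limma adjusted p = 0.179), without overlap. OTUB1 differed by 0.40 (limma adjusted p = 0.323), and UCHL1 was listed at 0 in every library and not tested. The cofactor of the VCP segregase NSFL1C had 10.9, 13.7 and 10.7 FPKM in resistant 17, 18 and 28, against 6.10, 4.86 and 5.53 FPKM in control 17, 18 and 28, without overlap (0.97, limma adjusted p = 0.158). FAF1, another cofactor, differed by -0.25 (limma adjusted p = 0.565), and the 5 genes of that list had a median of -0.00. Of 9 genes of peptide supply, NLRC5, which raises class I genes, had 11.3, 14.5 and 21.1 FPKM in resistant 17, 18 and 28, against 21.8, 22.9 and 25.2 FPKM in control 17, 18 and 28 (-0.59, limma adjusted p = 0.357), and TAP2, a peptide transporter, differed by 0.44 (limma adjusted p = 0.399). The median of those 9 was -0.03.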

How the data were processed

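RNA-seq libraries of 3 resistant and 3 control pools of HG3 were grouped by their labels. The deposited values were FPKM per gene symbol, per the file headers. The submitters' processing notes list HTSeq 0.6.1, DESeq2, Cufflinks 2.2.1 and TopHat2 2.0.4 and the build hg19; the sources used here do not state the role of each, the strand setting or the annotation. Relative depth came from low values, which move in whole fragments: 63.7% to 69.0% of ratios of low values matched small whole numbers within 0.02 (log2), against 15.4% to 16.9% at other offsets. Genes with FPKM of at least 1 in 3 libraries were tested with limma 3.58.1 (R 4.3.3) on log2(FPKM + 1) (trend, two-sided, no block), adjusted over all 11307. Deviations from the group means correlated at 0.148, 0.0892 and -0.0243 between same-numbered libraries, and at -0.207 to 0.173 between differently numbered ones. With 3 libraries per group these correlations cannot show whether same-numbered libraries are paired. The main fit was planned without a pool block, and the block was an alternative. A difference per pool pairs libraries by number only. GC content and length came from GENCODE v29, matched for 87.7% of tested genes and all 50 members; promoters and gene order came from RefSeq GRCh38.p14, and no coordinate was converted. The members, lists and rules were chosen with earlier results of these data known. Named were USP14, UCHL5, ADRM1, POMP and the cutting subunits, up to 3 members of smallest p per role, the 3 largest differences per pool, and up to 2 genes per list; others were named after their values were seen, and 2 genes picked by the rule are not reported here. The fit was also run on simulated data in which each gene had the same spread in all libraries. That run does not cover a library that stands apart from the others. Of the 52 members, 10 have pseudogenes named after them (30 in all) and 26 share exonic bases with another gene, and such reads could be split by the counting.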

Additional observations from a re-analysis of the deposited data

How the results depend on the processing

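The 21 alternatives changed pseudocount, filter, scaling, weights, the replicate block, GC and length trends, and the libraries or pools used. Among 28 named members, 570 of 588 values kept direction and call. With array weights 301 genes passed, 2 of them members: USP14 (-1.56, adjusted p = 0.0134) and PSMA4; PSMB3 (-0.30), PSMB7 (-0.17), UCHL5 (-0.012) and the medians of cap-bound genes (-0.012), beta ring (-0.17), core rings (-0.031), activators (-0.070) and assembly factors (0.019) changed sign. PSMB7 was -0.0021 with median centring and -0.022 with quantile normalization. Of all genes 2 passed with GC and length trends removed, also with linear loess or longest transcripts (both added after seeing the data), 0 with the replicate block as well (1517 at an unadjusted p under 0.05), and 3 with the block alone, where USP14 had an adjusted p of 0.206. Leaving out a library or pool, 3 (without control 28) to 18 genes (without pool 18) passed, with 13 without resistant 18, 8 without resistant 17 and 0 members. Those ranges were -0.31 to 0.22 for PSMB5, -0.21 to 0.17 for PSMB7, -0.40 to 0.65 for PSMB3, -0.62 to 0.10 for PSMC1, -0.056 to 0.51 for PSMB9, 0.0017 to 0.30 for the cap-bound median, -0.20 to 0.19 for the assembly median, -0.029 to 0.64 for the alpha ring, -0.21 to 0.16 for the beta ring, -0.051 to 0.31 for the core rings, -0.10 to 0.34 for activators, -0.032 to 0.14 for ATPases, -0.077 to 0.51 for PSMB8 over PSMB5 and -0.075 to 0.39 for PSMB10 over PSMB7; the cause was not tested. USP14 stayed between -1.75 and -1.40 there. Without counts, the counting error of low levels, as for UCHL5 and PSMB2, is unknown.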
